A study of Mus musculus with 36 samples.

Results

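Trem2, its adaptor Tyrobp, the sister adaptor Fcer1g, and the myeloid partners Csf1r, Ly86, Laptm5, Aif1, Bin2 and Ncf1 were followed through ribosome-bound RNA of the mouse brain. They were chosen by symbol, 9 of the 12580 genes listed in a steady-state table and of the 12403 listed in a table of lipopolysaccharide (LPS) treatment. All 9 passed the filter on low counts in both tables and were tested in every comparison. The RNA came from hemibrain homogenates of mice with a split Cre recombinase, whose N- and C-terminal parts are driven by 2 different genes and act only in cells that express both. One strain was CX3CR1-CCre+/-:Sall1-NCre+/-:Ribo-tag+/-, labelled Sall1+ microglia and called the Sall1 line here. The other was CX3CR1-CCre+/-:Lyve1-NCre+/-:Ribo-tag+/-, labelled Lyve1+ macrophage and called the Lyve1 line. Both lines thus share the CX3CR1-driven part of Cre and the Ribo-tag allele, which gives Cre-active cells an HA-tagged ribosomal protein. Precipitation with anti-HA antibody pulls down the RNA on tagged ribosomes, and precipitation with IgG measures what the procedure carries over without the tag. At steady state each line had 6 HA and 6 IgG libraries. In the Lyve1 line 4 HA and 4 IgG libraries were made 12 h after an intraperitoneal injection of 2.5 mg/kg LPS, a bacterial cell-wall component that activates innate immune receptors. The untreated groups of the Lyve1 line serve as their reference, and no vehicle-injected group is named in the labels. LPS-treated samples of the Sall1 line were not analysed here. HA and IgG precipitates were prepared from each brain, but which library goes with which brain is not given, and no source used here says whether each library is a different mouse. The p-values below therefore measure the spread between libraries, which may be partly technical.

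TREM2 is a surface receptor for lipids, lipoproteins and cell debris that has no signalling tail of its own. It signals through TYROBP (DAP12), an adaptor with an immunoreceptor tyrosine-based activation motif (ITAM), which recruits the kinase SYK. FCER1G, the Fc receptor gamma chain, is the other ITAM adaptor of myeloid cells and serves activating Fc receptors. CSF1R is the receptor tyrosine kinase on which microglia depend for survival. LY86 is a secreted partner of a Toll-like receptor homologue, LAPTM5 a lysosomal membrane protein of blood-lineage cells, AIF1 (IBA1) the actin-binding protein used to stain microglia, BIN2 a membrane-curving protein of leukocytes, and NCF1 the organiser subunit of the phagocyte NADPH oxidase.

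Library totals ranged from 362063 to 1696679 counts, the lowest in the Lyve1 LPS IgG group. Levels are given as CPM, the count per 1000000 counts of a library total scaled on a single basis over the 32 libraries. They compare a gene across libraries and not with other genes, since a 3′ count does not give a level per length. RNA of other cell types was present in every library. The summed level of 12 neuron markers was 5640.1 to 7113 CPM in the Sall1 HA libraries and 6209 to 8213 CPM in the Sall1 IgG libraries, against 1028 to 1660.3 and 437 to 516 CPM for the 11 microglia markers on this scale. Those sums were 560.0 to 805 CPM in Lyve1 HA and 405 to 472 CPM in Lyve1 IgG. The 10 border macrophage markers summed to 101 to 227 CPM in Lyve1 HA against 32.5 to 48.4 in Lyve1 IgG and 51.0 to 82.1 in Sall1 HA. The microglia markers tested, 10 in all, were each higher in Sall1 HA than in IgG (adjusted p under 0.05), where 4.81% of all genes tested were. In the Lyve1 line 4 of those 10 were higher in HA, where 11.7% of all genes tested were. Of the 14 border macrophage markers on the list 4 were tested, and 3 were higher in Lyve1 HA than in IgG, among them Pf4 (3.84 ± 0.43, adjusted p = 4.71e-07). The defining gene Lyve1 stood at 6.13 ± 2.45 CPM (SD, n = 6) in Lyve1 HA and 0.868 ± 0.240 CPM (SD, n = 6) in Sall1 HA, from 57 counts in all. Sall1 passed neither in Sall1 HA over IgG (0.55 ± 0.31, adjusted p = 0.28) nor in Sall1 HA over Lyve1 HA (0.79 ± 0.33, adjusted p = 0.236). Cx3cr1, shared by the lines, was higher in HA than in IgG in the Sall1 line (2.34 ± 0.56, adjusted p = 0.00832). In the Lyve1 line Cx3cr1 did not pass (0.86 ± 0.73, adjusted p = 0.406). The libraries differed in one more respect. The Y-linked genes Ddx3y and Eif2s3y together had 29 to 63 counts in the 8 Sall1 libraries whose column number starts with 1 or 2, called Y-positive here, 0 to 2 in the 4 Sall1 libraries numbered 3, 0 to 4 in the 12 Lyve1 libraries at steady state and 15 to 60 in the 8 Lyve1 libraries after LPS.

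The promoters of 4 members are shown because the results below turn on them: Trem2, Laptm5 and Ncf1 were more than 4-fold higher in the Sall1 line, and Fcer1g and Ncf1 had the largest ratios of the members after LPS. Of the 9 members 6 had an entry in the RefSeq promoter table (build GRCm38.p6), and the 120 bases before the transcript start are printed 5′ to 3′. Capitals mark GAGGAA, the core sequence bound by the myeloid transcription factor PU.1, or its reverse complement TTCCTC. The Trem2 window is chr17:48346281-48346400, strand +, that of Laptm5 chr4:130913196-130913315, strand +, that of Fcer1g chr1:171234350-171234469, strand - and that of Ncf1 chr5:134229626-134229745, strand -.
Trem2: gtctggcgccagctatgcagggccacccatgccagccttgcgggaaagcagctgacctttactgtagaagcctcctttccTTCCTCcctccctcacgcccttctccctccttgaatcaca
Laptm5: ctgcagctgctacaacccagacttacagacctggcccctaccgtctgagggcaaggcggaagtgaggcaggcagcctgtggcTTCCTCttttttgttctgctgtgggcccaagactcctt
Fcer1g: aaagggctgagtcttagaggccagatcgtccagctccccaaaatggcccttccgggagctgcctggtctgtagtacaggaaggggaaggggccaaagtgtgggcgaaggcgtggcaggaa
Ncf1: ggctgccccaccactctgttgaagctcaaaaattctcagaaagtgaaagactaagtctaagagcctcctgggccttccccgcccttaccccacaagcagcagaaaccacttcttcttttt
Searched on both strands over 150 bases before the start, the motif was found once each in Trem2, Laptm5 and Aif1 and not in Fcer1g, Ncf1 or Ly86. Of 32851 RefSeq promoters 14.5% held it in the same window. The match in Trem2 begins 40 bases before the start and that in Laptm5 38 bases before it. These matches describe the letters in the window and not binding.

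The comparison of HA with IgG in the Sall1 line asks which RNAs were bound to the ribosomes of the tagged cells. All 9 members were higher in the HA libraries (adjusted p under 0.05 in edgeR's quasi-likelihood test with Benjamini-Hochberg adjustment over 9619 genes), where 4.81% of all genes tested were called higher. The ranges of the HA and IgG libraries did not overlap for any of the 9, a pattern shown in this direction by 2.37% of genes. Ratios are given as log2 values ± SE. In these bulk precipitates fewer cells of a type and less RNA per cell cannot be told apart.

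**Figure D1:**
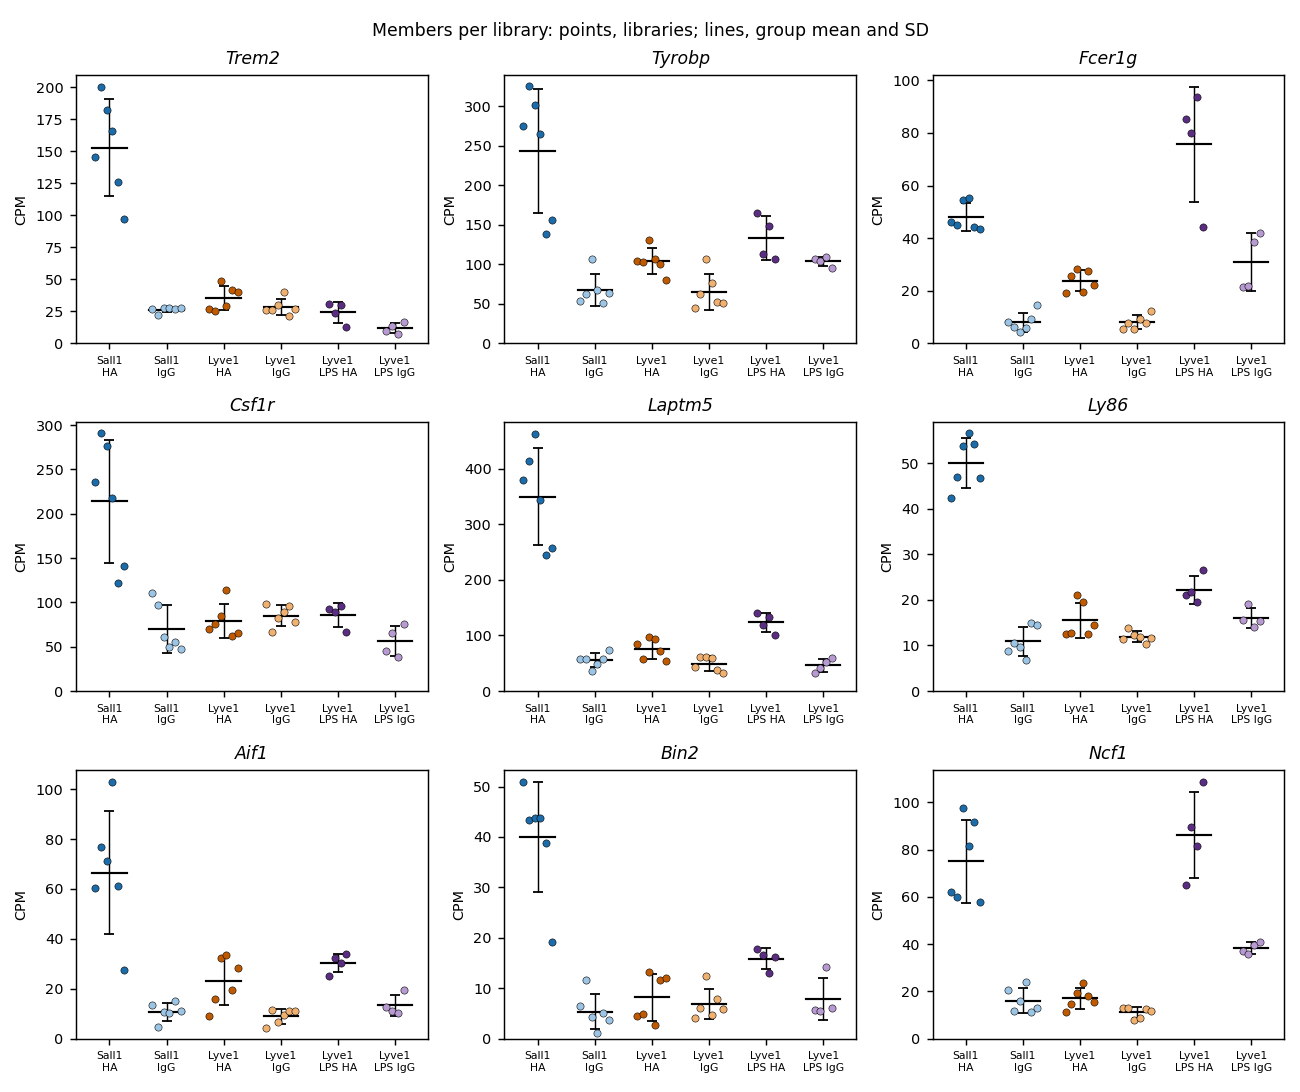
CPM of the 9 members in each of the 32 libraries (points), by group, with the group mean (long bar) and SD (whiskers) and a linear axis from 0 in each panel. Sall1 HA is the highest group for 7 genes, while Fcer1g and Ncf1 have their highest mean in the Lyve1 LPS HA group.

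Trem2 ranged over 96.9 to 200.4 CPM (median 156) in the 6 Sall1 HA libraries and 22.2 to 27.8 CPM (median 27.1) in the 6 IgG libraries. Every HA library was at least 3-fold above the highest IgG library, and HA libraries 3-2 and 3-1 were the lowest. The ratio was 2.53 ± 0.18 (adjusted p = 7.71e-12), 5.77-fold. Its adaptor Tyrobp ranged over 138 to 326 CPM (median 270.2) against 51.1 to 107 CPM (median 62.9). Libraries 3-1 and 3-2 were the lowest of the HA group for this gene, well below the other 4. Its ratio was 1.86 ± 0.22 (adjusted p = 8.65e-07), smaller than that of the receptor. Fcer1g, the adaptor of Fc receptors, ranged over 43.5 to 55.2 CPM (median 45.5) against 4.28 to 14.5 CPM (median 7.24). The HA libraries of Fcer1g were tightly grouped, and library 3-2 was the highest of the IgG group. The ratio of Fcer1g was 2.50 ± 0.22 (adjusted p = 7.45e-10).

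Csf1r ranged over 122 to 291 CPM (median 227) in Sall1 HA and 47.8 to 111 CPM (median 57.9) in Sall1 IgG. As for Tyrobp, HA libraries 3-1 and 3-2 were the lowest, and the IgG group was spread out, with 1-1 and 1-2 at its top. Csf1r had the smallest ratio of the 9, 1.58 ± 0.22 (adjusted p = 1.33e-05). Ly86 ranged over 42.3 to 56.5 CPM (median 50.4) against 6.83 to 15 CPM (median 10.1), with the HA libraries close together. Its ratio was 2.15 ± 0.19 (adjusted p = 7.45e-10).

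Laptm5 ranged over 244 to 463 CPM (median 362) against 35.3 to 73.2 CPM (median 57.9), with 3-1 and 3-2 again the lowest HA libraries. The lysosomal gene had a ratio of 2.65 ± 0.19 (adjusted p = 1.05e-11). Aif1 ranged over 27.6 to 103 CPM (median 66.0) against 4.43 to 15 CPM (median 10.8), and HA library 3-2 stood apart below the other 5. Its ratio was 2.58 ± 0.29 (adjusted p = 2.33e-07). Bin2 ranged over 19.2 to 50.9 CPM (median 43.6) against 1.14 to 11.5 CPM (median 4.63), also with 3-2 as the lowest HA library. Bin2 had the largest ratio of the 9, 2.84 ± 0.32 (adjusted p = 2.33e-07), from 1 to 13 counts in the IgG libraries. Ncf1, the oxidase organiser, ranged over 57.7 to 97.5 CPM (median 71.6) against 11.2 to 23.9 CPM (median 14.5), and library 3-1 was among its highest HA libraries. The ratio of Ncf1 was 2.23 ± 0.20 (adjusted p = 1.88e-09).

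All 9 ratios kept their sign without the 8 Y-positive Sall1 libraries, and 8 kept their call. The exception was Aif1 (1.78, adjusted p = 0.0583). The corresponding values were 2.04, adjusted p = 0.000201 for Trem2 and 1.36, adjusted p = 0.0185 for Tyrobp.

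In the Lyve1 line at steady state the same comparison passed for some members and not for others. Fcer1g and Aif1, and by smaller ratios Tyrobp and Laptm5, were higher in HA than in IgG, 4 of 9 where 11.7% of genes were called higher. Trem2, Csf1r, Ly86, Bin2 and Ncf1 did not pass. The ratio of Ncf1 (0.59 ± 0.24) lay near those of Laptm5 (0.65 ± 0.20) and Tyrobp (0.68 ± 0.22), and the members were not tested against each other. Csf1r was the 1 member with a ratio below 0.

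Trem2 ranged over 25.6 to 48.8 CPM (median 34.7) in the 6 Lyve1 HA libraries and 21.3 to 40.1 CPM (median 26.5) in the 6 IgG libraries. The groups overlapped over most of their range. The ratio was 0.35 ± 0.19 (adjusted p = 0.182), with a 95% interval of -0.05 to 0.76. Tyrobp ranged over 80.3 to 131 CPM (median 104) against 44.4 to 106 CPM (median 57.3), with IgG library 2-1 inside the HA range. Its ratio was 0.68 ± 0.22 (adjusted p = 0.0246). Fcer1g ranged over 19.3 to 28.4 CPM (median 23.9) against 5.38 to 12.4 CPM (median 7.85), and it was the 1 member whose groups did not overlap, as 5.30% of genes did in this direction. Its ratio was 1.53 ± 0.24 (adjusted p = 2.45e-05), 2.88-fold.

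Csf1r ranged over 62.5 to 114 CPM (median 72.9) in Lyve1 HA and 66.0 to 98.2 CPM (median 85.7) in Lyve1 IgG. The HA median lay below the IgG median, with a ratio of -0.13 ± 0.23 (adjusted p = 0.719) and an interval of -0.60 to 0.35. Ly86 ranged over 12.5 to 21.1 CPM (median 13.7) against 10.2 to 13.9 CPM (median 11.8), with HA libraries 2-1 and 2-2 above the rest. Its ratio was 0.39 ± 0.21 (adjusted p = 0.177).

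Laptm5 ranged over 53.8 to 96.3 CPM (median 78.3) against 31.9 to 61.7 CPM (median 51.4), and the 2 lowest HA libraries lay within the IgG range. Its ratio was 0.65 ± 0.20 (adjusted p = 0.0162). Aif1 ranged over 9.08 to 33.4 CPM (median 23.9) against 4.03 to 11.3 CPM (median 10.2), with only HA library 1-1 inside the IgG range. The ratio of Aif1 was 1.38 ± 0.33 (adjusted p = 0.00242). Bin2, at 2 to 20 counts in these libraries, ranged over 2.78 to 13.2 CPM (median 8.21) against 4.03 to 12.3 CPM (median 5.97). Ncf1 ranged over 11.4 to 23.6 CPM (median 16.6) against 7.85 to 13 CPM (median 12.2). Their groups overlapped, with ratios of 0.42 ± 0.38 (adjusted p = 0.434) for Bin2 and 0.59 ± 0.24 (adjusted p = 0.0733) for Ncf1. With the counts of libraries that share the first digit of their number summed, Tyrobp (0.71, adjusted p = 0.131) and Laptm5 (0.66, adjusted p = 0.103) lost their calls. Both were also lost without Lyve1 HA library 2-1, and Tyrobp without Lyve1 IgG library 1-1, 1-2, 3-1 or 3-2. Ncf1 gained a call without Lyve1 HA library 1-1 (0.68, adjusted p = 0.0455).

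**Figure D2:**
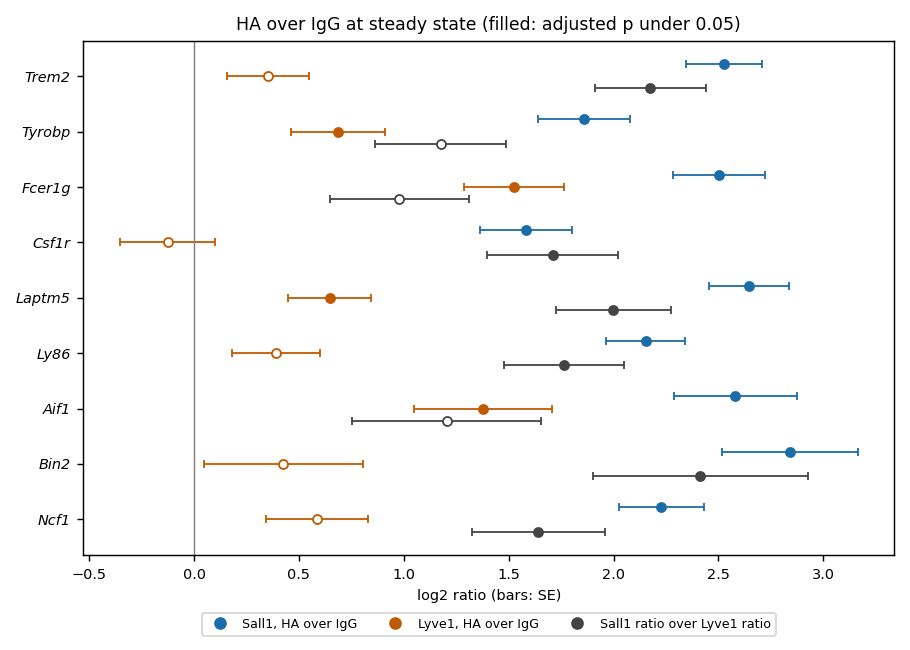
Log2 ratio of HA over IgG (points, with SE) for each member at steady state in the Sall1 line and the Lyve1 line, and the difference of the 2 ratios; filled points have an adjusted p under 0.05. All Sall1 ratios lie above 1.5, and the Lyve1 ratios lie between -0.13 and 1.53.

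Set against each other, the HA libraries of the 2 lines differed for all 9 members, each higher in the Sall1 line, where 1.24% of genes were called higher. The values in each library are those given above, since both comparisons use the same HA libraries. For 8 members the ranges did not overlap, against 1.32% of genes, and for Aif1 the lowest Sall1 library, 3-2, lay inside the Lyve1 range. The ratio was 2.05 ± 0.18 (adjusted p = 2.16e-09) for Trem2, 2.18 ± 0.19 (adjusted p = 2.16e-09) for Laptm5, 2.14 ± 0.31 (adjusted p = 6.36e-05) for Bin2 and 2.12 ± 0.21 (adjusted p = 2.44e-08) for Ncf1. Those 4 were more than 4-fold higher. The other receptors and partners followed with 1.65 ± 0.19 (adjusted p = 4.46e-07) for Ly86, 1.49 ± 0.27 (adjusted p = 0.00146) for Aif1 and 1.43 ± 0.22 (adjusted p = 0.000229) for Csf1r. The adaptors had the smallest ratios, 1.21 ± 0.21 (adjusted p = 0.00114) for Tyrobp and 0.98 ± 0.20 (adjusted p = 0.00389) for Fcer1g.

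Without the 8 Y-positive Sall1 libraries, HA libraries 3-1 and 3-2 remain against the 6 Lyve1 HA libraries. Over all genes 900 were then called in either direction, against 135 with all libraries. Among the members 7 kept their calls. Trem2 (1.58, adjusted p = 9.88e-05), Laptm5 (1.68, adjusted p = 2.13e-05) and Ncf1 (2.10, adjusted p = 1.19e-05) were among them, while Tyrobp (0.46, adjusted p = 0.172) and Aif1 (0.89, adjusted p = 0.0947) lost theirs. With counts summed by the first digit Tyrobp, Fcer1g and Csf1r lost their calls.

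The IgG libraries of the 2 lines gave no call for any member or any of the 9619 genes with edgeR's quasi-likelihood test. At an unadjusted p under 0.05 it counted 0 members and 644 genes, and DESeq2's adjusted p counted 0 members and 12 genes. The ratio of Sall1 IgG over Lyve1 IgG was -0.12 ± 0.20 (adjusted p = 0.949) for Trem2, with an interval of -0.53 to 0.29, and 0.03 ± 0.23 (adjusted p = 0.993) for Tyrobp, with -0.44 to 0.50. It was largest for Ncf1, 0.48 ± 0.24 (adjusted p = 0.739), with an interval of -0.02 to 0.97.

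The difference between the HA over IgG ratios of the lines was tested as an interaction. It passed for 6 members, where 0.208% of genes, 20 in all, were called higher in the Sall1 line. Trem2, the lipid receptor, had 2.17 ± 0.26 (adjusted p = 1.97e-05), followed by Laptm5 with 2.0 ± 0.27 (adjusted p = 8.56e-05), Ly86 with 1.76 ± 0.29 (adjusted p = 0.00103) and Csf1r with 1.71 ± 0.31 (adjusted p = 0.00543). Ncf1 had 1.64 ± 0.32 (adjusted p = 0.0086) and Bin2 2.41 ± 0.51 (adjusted p = 0.0245). The ITAM adaptors and Aif1 did not pass, with 1.18 ± 0.31 (adjusted p = 0.221) for Tyrobp, 1.2 ± 0.45 (adjusted p = 0.682) for Aif1 and 0.98 ± 0.33 (adjusted p = 0.558) for Fcer1g. Their unadjusted 95% intervals were 0.53 to 1.83, 0.27 to 2.14 and 0.29 to 1.67, which lie above 0. Without the Sall1 libraries numbered 3, Tyrobp passed (1.33, adjusted p = 0.0147). At that setting 7 members were called, where 32 of all genes were in either direction, against 21 with all libraries.

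Without the 8 Y-positive Sall1 libraries, which leaves 2 HA and 2 IgG libraries of that line, each of the 6 differences kept its sign and lost its call. The values were then 1.68 for Trem2, 1.49 for Csf1r and 2.04 for Ncf1 (adjusted p = 0.146 for each), 2.29, adjusted p = 0.586 for Bin2, 1.38, adjusted p = 0.537 for Ly86 and 1.30, adjusted p = 0.4 for Laptm5. That of Ncf1 was thus above its value with all libraries, and the others were below theirs. With counts summed by the first digit only Trem2 passed (2.17, adjusted p = 0.023). The call of Bin2 was also lost without Lyve1 HA library 1-1 or 1-2, Lyve1 IgG library 2-1 or 3-1, Sall1 HA library 1-1 or 2-2, or Sall1 IgG library 2-1, 3-1 or 3-2.

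After LPS the HA and IgG libraries of the Lyve1 line differed for 5 members: Laptm5, Fcer1g, Ncf1, Aif1 and Trem2 were higher in HA, where 5.22% of genes were called higher. Trem2, not called before treatment, was among them, although the difference between its treated and untreated ratios did not pass (0.69 on the log2 scale, adjusted p = 0.312). The 4 LPS HA libraries of Trem2, numbered 1-1, 1-2, 2-1 and 2-2, had 30.8, 23.5, 30.2 and 13.2 CPM, and the 4 LPS IgG libraries in the same order 9.98, 13.7, 7.70 and 16.4 CPM. HA library 2-2 lay inside the IgG range, and all other HA libraries lay above it. The ratio was 1.07 ± 0.33 (adjusted p = 0.0325), from 5 to 16 counts in the IgG libraries.

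Tyrobp had 165, 114, 149 and 107 CPM in the LPS HA libraries and 107, 104, 109 and 95.3 CPM in the LPS IgG libraries, in that order. The lowest HA library lay within the IgG range, and the ratio was 0.37 ± 0.20 (adjusted p = 0.26). Fcer1g had 85.2, 79.9, 93.6 and 44.1 CPM in HA and 21.4, 21.9, 38.5 and 42.0 CPM in IgG. All 4 HA libraries lay above all 4 IgG libraries, as 8.17% of genes did, with a ratio of 1.24 ± 0.25 (adjusted p = 0.00116). Csf1r had 92.5, 88.6, 95.8 and 66.2 CPM in HA and 45.6, 65.7, 38.5 and 75.8 CPM in IgG. Its groups overlapped at the HA library 2-2, and the ratio was 0.62 ± 0.21 (adjusted p = 0.0587).

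Laptm5 had 139.5, 119, 134 and 101 CPM in HA and 32.8, 41.1, 52.6 and 59.4 CPM in IgG. No HA library came near the IgG range, and the ratio was 1.38 ± 0.23 (adjusted p = 0.000141). Ncf1 had 64.9, 89.5, 81.4 and 109 CPM in HA and 37.1, 35.6, 39.8 and 41.0 CPM in IgG. Its IgG libraries were within a narrow band below all HA libraries, with a ratio of 1.13 ± 0.22 (adjusted p = 0.000651). Aif1 had 25.1, 32.1, 30.2 and 33.8 CPM in HA and 12.8, 10.9, 10.3 and 19.5 CPM in IgG. Its groups did not overlap either, with a ratio of 1.10 ± 0.34 (adjusted p = 0.0338). Ly86 had 21.1, 21.7, 19.4 and 26.5 CPM in HA and 15.7, 19.2, 14.1 and 15.4 CPM in IgG, which did not overlap, yet its ratio of 0.47 ± 0.27 (adjusted p = 0.301) did not pass. Bin2 had 17.8, 16.5, 13 and 16.2 CPM in HA and 5.70, 5.47, 14.1 and 6.15 CPM in IgG. IgG library 2-1 of Bin2 lay among the HA libraries, and the ratio was 0.94 ± 0.42 (adjusted p = 0.153).

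With counts summed by the first digit the calls of Trem2 (1.10, adjusted p = 0.065) and Aif1 (1.08, adjusted p = 0.109) were lost. The call of Trem2 was also lost without HA library 1-1, 1-2 or 2-1 or IgG library 1-1 or 2-1, and that of Aif1 without HA library 1-2, 2-1 or 2-2 or IgG library 1-1, 1-2 or 2-1.

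LPS treatment and the Y-linked counts coincide in the Lyve1 line, and their parts in a change from untreated libraries cannot be told apart. Against the untreated Lyve1 libraries, LPS went with higher Ncf1 and Fcer1g in both kinds of precipitate. In the HA libraries 3 members were higher, Ncf1, Fcer1g and Laptm5, and none lower, where 9.46% of genes were called higher. In the IgG libraries Fcer1g, Ncf1 and Tyrobp were higher, where 6.92% of genes were, and Trem2 and Csf1r were lower, where 6.44% were. The level of Trem2 and the levels of both ITAM adaptors therefore differed in opposite directions in the IgG libraries. The untreated HA and IgG libraries are those of the steady-state comparison above.

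Trem2 stood at 24.4 ± 8.19 CPM (SD, n = 4) in LPS HA and 35.5 ± 9.44 CPM (SD, n = 6) in untreated HA, and the groups overlapped. The ratio of LPS over untreated was -0.53 ± 0.24 (adjusted p = 0.128) in HA, a lower value that did not pass. In IgG the means were 11.9 ± 3.86 CPM (SD, n = 4) and 28.4 ± 6.39 CPM (SD, n = 6), with every LPS library below every untreated one, as for 7.65% of genes, and a ratio of -1.22 ± 0.30 (adjusted p = 0.00508). Tyrobp stood at 134 ± 27.9 CPM (SD, n = 4) against 104 ± 16.3 CPM (SD, n = 6) in HA, with overlap and a ratio of 0.37 ± 0.18 (adjusted p = 0.155). In IgG it stood at 104 ± 6.05 CPM (SD, n = 4) against 65.5 ± 22.9 CPM (SD, n = 6), where untreated library 2-1 lay inside the LPS range, and the ratio was 0.71 ± 0.19 (adjusted p = 0.0109).

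Fcer1g stood at 75.7 ± 21.8 CPM (SD, n = 4) in LPS HA, and every LPS HA library lay above every untreated one, as for 6.10% of genes. Its ratio was 1.67 ± 0.22 (adjusted p = 6.78e-07) in HA and 1.98 ± 0.28 (adjusted p = 3.54e-06) in IgG, 3.19-fold and 3.94-fold. Ncf1 stood at 86.1 ± 18.2 CPM (SD, n = 4) in LPS HA against 17.0 ± 4.26 CPM (SD, n = 6) untreated, also without overlap. Its ratio was 2.32 ± 0.20 (adjusted p = 6.92e-11) in HA and 1.79 ± 0.23 (adjusted p = 6.53e-07) in IgG, 4.99-fold and 3.47-fold. In IgG as in HA every LPS library of both genes lay above every untreated one, as for 5.69% of genes in IgG.

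Laptm5 stood at 123 ± 17.1 CPM (SD, n = 4) in LPS HA against 76.3 ± 18.1 CPM (SD, n = 6) untreated, and the groups did not overlap. Its ratio was 0.70 ± 0.19 (adjusted p = 0.00807) in HA and -0.01 ± 0.22 (adjusted p = 0.985) in IgG. For Csf1r the ratio was 0.15 ± 0.18 (adjusted p = 0.622) in HA and -0.58 ± 0.20 (adjusted p = 0.0456) in IgG. Ly86, Aif1 and Bin2 passed in neither, with ratios of 0.48 ± 0.23 (adjusted p = 0.158), 0.35 ± 0.27 (adjusted p = 0.394) and 0.82 ± 0.34 (adjusted p = 0.0946) in HA. The corresponding ratios in IgG were 0.42, 0.65 and 0.33.

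**Figure D3:**
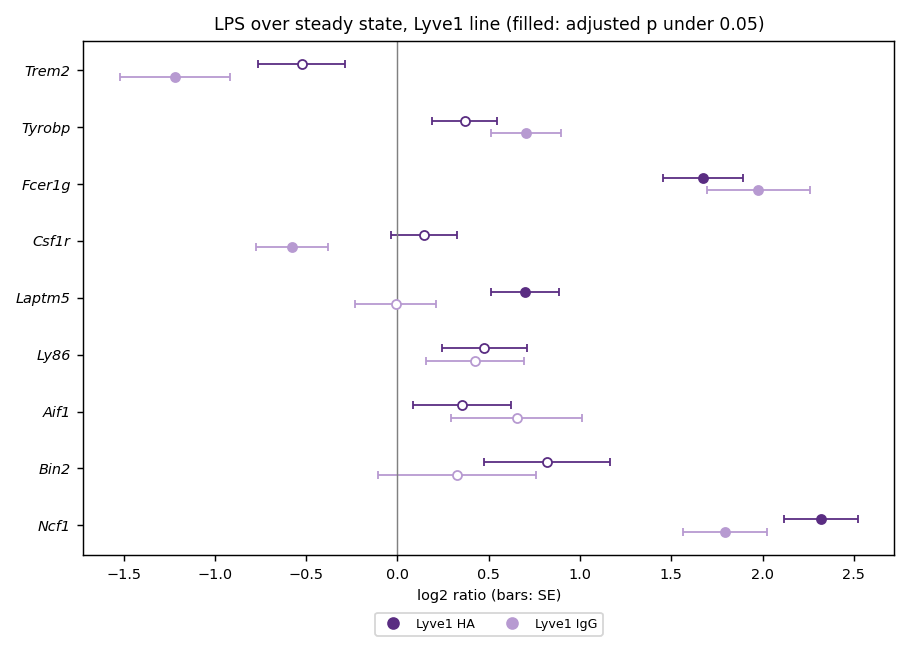
Log2 ratio of LPS over untreated (points, with SE) for each member in the HA and the IgG libraries of the Lyve1 line; filled points have an adjusted p under 0.05. Fcer1g and Ncf1 lie above 1.5 in both, and Trem2 lies below 0 in both.

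Whether the LPS change differed between HA and IgG was tested as an interaction, and no member passed with edgeR's quasi-likelihood test, where 3.23% of genes did in either direction. At an unadjusted p under 0.05 there were 2 of the 9 members, Csf1r (0.72 ± 0.27, adjusted p = 0.115) and Laptm5 (0.71 ± 0.29, adjusted p = 0.153). The same was true of 2001 of the 9680 genes tested. DESeq2 called 0 and limma-voom 1 member, Csf1r. The difference was 0.69 ± 0.39 (adjusted p = 0.312) for Trem2, with an interval of -0.13 to 1.52. The call of Csf1r in IgG was lost without untreated IgG library 1-1, 2-2 or 3-1 or LPS IgG library 1-1 or 2-1, and that of Tyrobp without LPS IgG library 2-1 or with counts summed by the first digit.

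Markers of other cell types moved with LPS as well. The 9 endothelial and mural markers on the common scale summed to 324 to 387 CPM in LPS HA against 160.3 to 247 in untreated HA, and the 8 astrocyte markers to 1666 to 2014 against 839 to 1109 CPM. The 6 monocyte and neutrophil markers of the 16 on the list that are on this scale summed to 99.0 to 209 against 75.2 to 153 CPM in HA, and to 41.1 to 89.9 against 39.1 to 90.8 in IgG. S100a6 held the most counts of these, 1995 in all, and had LPS ratios of 0.04 ± 0.19 in HA and -0.08 ± 0.22 in IgG. S100a9 was higher in LPS HA (2.04 ± 0.64, adjusted p = 0.0362), while S100a8 (1.28 ± 0.54, adjusted p = 0.103) and Camp (-0.20 ± 0.54, adjusted p = 0.833) did not pass. In IgG none passed, with 2.24 ± 0.84 (adjusted p = 0.0788) for S100a8 and -1.24 ± 1.03 (adjusted p = 0.485) for Camp. The microglia markers summed to 547 to 789.8 CPM in LPS HA and 428 to 523 in LPS IgG, where P2ry12 had 0 counts in every library. Of these markers Sparc held the most counts, 12462 in all. Against untreated IgG, Sparc was higher in LPS IgG (0.55 ± 0.15, adjusted p = 0.0113). Olfml3 (-1.66 ± 0.38, adjusted p = 0.00226) and Fcrls (-0.66 ± 0.21, adjusted p = 0.0348) were lower there. No other microglia marker tested passed in IgG, and none passed in HA. The part of other cell types in the changes of the members was not tested.

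Ordered by group mean, Trem2 was highest in Sall1 HA, without overlap with the next group. Lyve1 HA, Lyve1 IgG, Sall1 IgG, Lyve1 LPS HA and Lyve1 LPS IgG followed, and each of these overlapped its neighbour. Csf1r, Laptm5, Ly86 and Bin2 also had Sall1 HA at the top without overlap, with Lyve1 LPS HA next. For Tyrobp and Aif1 Sall1 HA led but overlapped Lyve1 LPS HA. Fcer1g and Ncf1 had Lyve1 LPS HA at the top, overlapping Sall1 HA, and both of these groups lay apart from the third, Lyve1 LPS IgG.

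The genes whose profile over the 6 group means came closest to that of Trem2, by the root mean square difference of centred log2 CPM among 9588 genes, were Susd3 (0.172), Crybb1 (0.221), Olfml3 (0.268), Slc2a5 (0.289), Pld4 (0.294), Selplg (0.294), Ltc4s (0.297) and P2ry12 (0.306). Of these, Crybb1, Olfml3, Slc2a5, Selplg and P2ry12 are on the list of microglia markers. P2ry12 had 162 counts in all and none in Lyve1 LPS IgG, so its low point there is set by the constant added before taking logs. Csf1r ranked 17 with 0.521 and Laptm5 20 with 0.543. Bin2 ranked 50, Ly86 51 and Aif1 57. The adaptor Tyrobp ranked 166 with 0.802, while Ncf1 ranked 8615 and Fcer1g 9142. The measure covers 6 group means and is a description. It depends on the size of the differences between groups as well as on their shape. A gene that barely varies can therefore rank above one that varies strongly, and a low rank does not mean an opposite profile. In Sall1 HA, Ncf1 (1.24) and Fcer1g (0.97) lay above their own means, as Trem2 did (2.15).

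**Figure D4:**
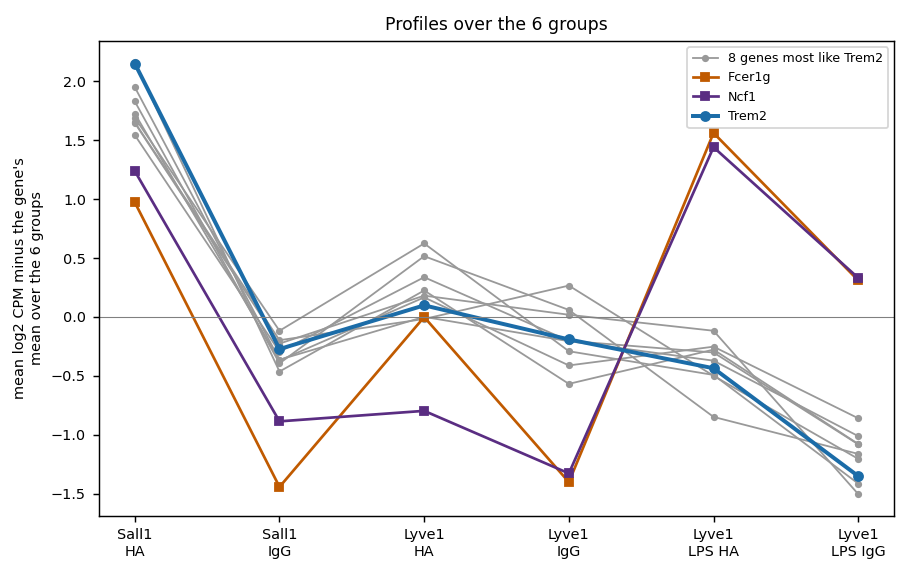
Mean log2 CPM of each group minus the gene's mean over the 6 groups, for Trem2, the 8 genes with the closest profile, Fcer1g and Ncf1. Trem2 and the 8 genes are highest in Sall1 HA and lowest in Lyve1 LPS IgG, where P2ry12 had no counts, whereas Fcer1g and Ncf1 have their peak in Lyve1 LPS HA.

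Among 17 receptors that couple to ITAM adaptors, 5 were tested at steady state. Of these 4 were higher in Sall1 HA than in IgG: the Fc receptor gene Fcgr3 (2.21 ± 0.25, adjusted p = 2.33e-07), Siglech (2.37 ± 0.57, adjusted p = 0.00811) and the integrin chains Itgb2 (1.82 ± 0.47, adjusted p = 0.0115) and Itgam (1.16 ± 0.32, adjusted p = 0.0168). The list's median was 1.82, against -0.01 over all genes, of which 4.81% were called higher. In the Lyve1 line Fcgr3 was the 1 of 5 called (0.90 ± 0.27, adjusted p = 0.0141), where 11.7% of genes were called higher. The list median was 0.37 against 0.01. Fcgr3, whose product signals through the FCER1G chain, and Itgam were higher in Sall1 HA than in Lyve1 HA (1.29 ± 0.24, adjusted p = 0.00171 and 1.54 ± 0.35, adjusted p = 0.0127). After LPS 4 of 5 tested rose in Lyve1 HA, where 9.46% of genes did, with a median of 1.61 against -0.02. They were Fcgr4 (5.30 ± 0.63, adjusted p = 8.3e-08), Itgam (1.86 ± 0.31, adjusted p = 3.77e-05), Itgb2 (1.61 ± 0.51, adjusted p = 0.0256) and Fcgr3 (1.51 ± 0.24, adjusted p = 2.32e-05). HA over IgG after LPS passed for 2 of 5, Fcgr3 (1.0 ± 0.27, adjusted p = 0.0149) and Itgam (1.26 ± 0.35, adjusted p = 0.0172), where 5.22% of genes were called higher. Of the 8 libraries left out in turn, 3 cost Fcgr3 its call and 2 cost Itgam its call. In the IgG libraries 2 of 5 rose with LPS, Fcgr4 (3.93 ± 0.72, adjusted p = 0.000185) and Fcgr3 (1.44 ± 0.28, adjusted p = 0.000505), where 6.92% of genes did. Of 10 inhibitory receptors only Sirpa was tested, and it passed in none of the 9 comparisons.

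Of 28 downstream kinases and effectors 12 were tested at steady state, and 4 were higher and 1 lower in Sall1 HA than in IgG, where 4.81% of all genes tested were higher and 4.99% lower. The phosphatase gene Inpp5d, which restrains signalling at the membrane, was higher (1.41 ± 0.23, adjusted p = 0.000117), with Grb2 (0.35 ± 0.11, adjusted p = 0.0377) and Ptpn6 (0.95 ± 0.31, adjusted p = 0.0473), and the kinase gene Ptk2b was lower (-0.74 ± 0.16, adjusted p = 0.0022). The calls of Grb2 and Ptpn6 were each lost with 8 of the 12 libraries of this comparison left out in turn. The list's median was 0.30, against -0.01 over all genes. Inpp5d was also the 1 gene of the list higher in Sall1 HA than in Lyve1 HA (1.55 ± 0.24, adjusted p = 0.000223), at 34.9 ± 8.33 CPM (SD, n = 6) and 11.2 ± 3.33 CPM (SD, n = 6), and the 1 that passed the interaction (1.58 ± 0.36, adjusted p = 0.0436). Over all genes 1.24% were called higher between the HA groups and 0.208% in the interaction. That interaction call was lost with 17 of the 24 libraries left out in turn, with counts summed by the first digit (1.59, adjusted p = 0.702) and without the Y-positive Sall1 libraries (0.86, adjusted p = 0.965). In Lyve1 HA over IgG none of the 12 was higher and 2 were lower, Ptk2b (-0.88 ± 0.16, adjusted p = 0.00014) and Prkcd (-0.48 ± 0.14, adjusted p = 0.014), where 14.0% of all genes tested were lower. After LPS 4 of 13 rose in Lyve1 HA, among them Ptpn6 (1.76 ± 0.32, adjusted p = 0.000174), where 9.46% of genes did. The list median was 0.49 against -0.02. In IgG none rose, and Ptk2b fell (-0.47 ± 0.15, adjusted p = 0.0274), where 6.92% of genes rose and 6.44% fell.

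Among the 4 genes for ligands and sheddases of Trem2, Apoe, a lipoprotein that binds the receptor, was higher in HA than in IgG in both lines, with 0.81 ± 0.12 (adjusted p = 4.02e-05) in Sall1 and 1.27 ± 0.12 (adjusted p = 1.07e-07) in Lyve1. Its ratio between the HA groups, -0.31 ± 0.12 (adjusted p = 0.215), did not pass, in contrast to that of Trem2. After LPS Apoe and Clu, another apolipoprotein gene, were higher in Lyve1 HA than in IgG (1.10 ± 0.15, adjusted p = 9.95e-06 and 0.72 ± 0.15, adjusted p = 0.00176), and neither passed against untreated HA. The sheddase genes Adam10 and Adam17 passed in none of the 9 comparisons. Of the 8 ligands and relatives of Csf1r, 5 were tested and none passed at steady state. After LPS the ligand gene Csf1 rose in Lyve1 HA (1.56 ± 0.28, adjusted p = 0.000118) and did not pass in IgG (0.80 ± 0.30, adjusted p = 0.0755), while the other ligand gene, Il34, passed in neither.

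Among genes of other NADPH oxidase subunits, the membrane subunit gene Cyba was higher in Sall1 HA than in IgG (1.96 ± 0.20, adjusted p = 2.11e-08), while Rac1 did not pass (-0.34 ± 0.12, adjusted p = 0.0676). Cyba was higher in Lyve1 HA than in IgG as well (0.95 ± 0.21, adjusted p = 0.00122), where Ncf1 did not pass. After LPS Cyba was higher in HA than in IgG (1.61 ± 0.23, adjusted p = 1.84e-05), and against untreated libraries it rose in HA (1.55 ± 0.19, adjusted p = 2.36e-07) and in IgG (0.92 ± 0.23, adjusted p = 0.00637), as Ncf1 did, and Ncf4 rose in HA (1.51 ± 0.46, adjusted p = 0.0203). A list of 10 genes around the receptor for LPS had 3 tested at steady state, and none passed there. Tlr4 and Ly96 of that list were tested in neither table, so the LPS receptor itself was not measured. After LPS 4 of 5 tested rose in Lyve1 HA, where 9.46% of genes did, with a median of 2.60 against -0.02. They were the binding protein gene Lbp (2.84 ± 0.28, adjusted p = 1.38e-09), the coreceptor gene Cd14 (2.60 ± 0.35, adjusted p = 9.43e-07), the related receptor gene Tlr2 (2.61 ± 0.48, adjusted p = 0.000164) and the adaptor gene Myd88 (1.75 ± 0.25, adjusted p = 2.58e-06). Cd14 and Lbp were also higher in LPS HA than in LPS IgG (1.31 ± 0.36, adjusted p = 0.0169 and 0.87 ± 0.28, adjusted p = 0.039). Of the 8 libraries left out in turn, 3 cost Cd14 its call and 5 cost Lbp its call. The 4 genes that rose in HA with LPS rose in IgG as well, where 6.92% of genes did, with a list median of 1.38 against 0.01.

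Of 10 myeloid transcription factors 8 were tested, and 6 were higher in Sall1 HA than in IgG, where 4.81% of genes were. The list's median was 1.12 against -0.01. Spi1, which encodes PU.1, had 2.02 ± 0.36 (adjusted p = 0.000294), Irf5 1.44 ± 0.33 (adjusted p = 0.00408), Cebpa 1.11 ± 0.25 (adjusted p = 0.00393) and Cebpb 0.80 ± 0.19 (adjusted p = 0.00475). In the Lyve1 line Cebpb alone passed (0.62 ± 0.19, adjusted p = 0.0164), where 11.7% of genes were called higher, and Spi1 did not (0.63 ± 0.36, adjusted p = 0.202). Between the HA groups Irf8, a factor of microglia and monocytes, was higher in the Sall1 line (1.27 ± 0.33, adjusted p = 0.0396), where 1.24% of genes were. That call of Irf8 was lost with 9 of the 12 libraries left out in turn. After LPS Spi1 rose in HA (1.33 ± 0.31, adjusted p = 0.00288) and in IgG (1.82 ± 0.34, adjusted p = 0.00031), as did Cebpb and Cebpa, and Mef2c fell in HA (-0.81 ± 0.21, adjusted p = 0.00558). The call of Cebpa was lost with 3 of 10 libraries left out in turn in HA and with 7 of 10 in IgG. Without the 8 Y-positive Sall1 libraries 2 of the 15 pathway genes selected and called for Sall1 HA over IgG were still called, Fcgr3 and Cyba, and the ratio of Ptpn6 turned to -0.10. With counts summed by the first digit 7 of the 15 were, 3 of 6 for Lyve1 HA over IgG, 2 of 5 between the HA groups, 5 of 8 for Lyve1 HA over IgG after LPS, 14 of 19 for LPS in HA and 8 of 11 for LPS in IgG. Between the HA groups 2 of 5 were also still called without the Y-positive libraries.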

How the data were processed

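RNA from anti-HA and IgG precipitates was sequenced as MARS-seq 3′ libraries. The authors deposited 2 tables of whole-number counts per gene, 1 for the lines at steady state and 1 for LPS in the Lyve1 line, with mm9 as the build per the submitters' processing notes. Which aligner and counter made them is not given in the sources used here. The deposited tables also hold a log2 fold change, an adjusted p-value and a pass mark for each of their comparisons, made with DESeq per the file headers. Only the counts were used for the tests. LPS-treated Sall1 samples were not analysed here.

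Each table was fitted whole with edgeR 4.0.16 (R 4.3.3): filterByExpr (minimum count 10, minimum total 15), TMM scaling, and a robust quasi-likelihood F test of group contrasts and interactions, with Benjamini-Hochberg adjustment and a threshold of 0.05. The steady-state fit held 9619 genes and 24 libraries, the LPS fit 9680 genes and 20 libraries. CPM used TMM over the 32 libraries and the 12173 genes in both tables, whose 12 shared libraries held the same counts. Member counts per library, from 1 for Bin2 to 572 for Laptm5, limit the precision. Alternatives were other scalings, no filter, DESeq2 1.42.0, limma-voom (limma 3.58.1), fewer groups or libraries, summed counts and a replicate block. No library pair of a group agreed within sampling noise (chi-square per degree of freedom 1.66 to 15.8). Libraries of a group that share the first digit of their number were more alike than others, with a median correlation of deviations of 0.19 against -0.30, so calls with counts summed by that digit are given beside the results. The members and lists were chosen with earlier results of these data known. From each of 8 pathway lists up to 4 genes per comparison with the smallest unadjusted p are named; some list genes are not reported here. Other list genes named with a value that did not pass were added after their values were seen, and 8 genes are named for likeness to Trem2.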

Additional observations from a re-analysis of the deposited data

Results flagged for a closer look

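In 3 of the 54 combinations of member and group that were examined, 1 library stood apart from the others by more than Dixon's critical value; chance gives about 1 such mark in 20 groups. Trem2 was lower in Sall1 IgG library 1-2, at 22.2 CPM, than in the other 5 libraries, which lay close together. Tyrobp was higher in Sall1 IgG library 2-1, at 107 CPM, where the next library had 67.2 CPM. Bin2 was higher in Lyve1 LPS IgG library 2-1, at 14.1 CPM from 11 counts, than in the other 3, which had 2 to 6 counts.

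The HA over IgG ratio differed between the lines, Sall1 minus Lyve1 on the log2 scale, by 2.17 for Trem2, 1.71 for Csf1r, 2.0 for Laptm5, 1.76 for Ly86, 2.41 for Bin2 and 1.64 for Ncf1, each with an adjusted p under 0.05 for the difference itself in edgeR's quasi-likelihood test. Without the 8 Y-positive Sall1 libraries, which leaves 2 libraries in each Sall1 group, none of the 6 was called, at values of 1.30 to 2.29.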

How the results depend on the processing

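Of the recomputed log2 values of the members 1704 kept their direction and their side of the threshold, 56 lost a call, 12 gained one and 25 changed sign; the causes were not tested beyond the fewer libraries that some settings leave. Members called numbered 9 in Sall1 HA over IgG and in the HA comparison between lines whichever library was left out, 2 to 5 in Lyve1 HA over IgG (5 without HA 1-1), 5 to 6 for the difference between lines, 3 to 6 in Lyve1 HA over IgG after LPS, 3 in LPS HA, 3 to 5 in LPS IgG, 0 to 1 for the LPS interaction and 0 between the IgG groups. With counts summed by the first digit they fell to 2 in Lyve1 HA over IgG, 3 in Lyve1 HA over IgG after LPS and 1, Trem2, for the difference between lines, and without the Y-positive Sall1 libraries to 0 for that difference. limma-voom called 1 member, Csf1r, in the LPS interaction.

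Values that changed sign were those of members with no call, and that of Ptpn6. Laptm5 in LPS IgG became 0.035 with limma-voom and 0.00067 with only the compared groups, and ran from -0.17 to 0.13 over libraries left out. Bin2 there ran from -0.16 (without LPS IgG 2-1) to 0.50. In the LPS interaction Ly86 ran from -0.0089 to 0.21 and Aif1 from -0.44 to 0.0082. Between the IgG groups Fcer1g became -0.015 without TMM, -0.018 with summed counts, -0.059 with limma-voom and -0.38 without the Sall1 libraries numbered 3, and ran from -0.23 to 0.20 over libraries left out, Tyrobp from -0.13 to 0.23 and Trem2 from -0.19 to 0.016. Without the Y-positive libraries Tyrobp became -0.21 and Ly86 0.27 there, and Ptpn6, called at 0.95 with all libraries, became -0.10 in Sall1 HA over IgG (adjusted p = 0.961).

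Over all genes, summed counts lowered the calls from 943 to 163 in Sall1 HA over IgG, from 2472 to 1005 in Lyve1 HA over IgG, from 135 to 29 between HA groups, from 21 to 4 for the difference between lines, from 931 to 443 in Lyve1 HA over IgG after LPS, from 1690 to 1126 in LPS HA and from 313 to 70 in the LPS interaction. Without the Y-positive libraries they were 69 in Sall1 HA over IgG, 900 between HA groups, 63 between IgG groups and 0 for the difference between lines. The LPS interaction had 543 with DESeq2, 515 with limma-voom and 127 to 890 over libraries left out, and Sall1 HA over IgG 541 with only the compared groups. Without the Sall1 libraries numbered 3 there were 17 between IgG groups and 32 for the difference between lines. The lowest counts with 1 library left out were 567 in Sall1 HA over IgG, 535 in Lyve1 HA over IgG after LPS and 1044 in LPS HA.

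The labels do not say that equal numbers mark 1 brain. At steady state same-numbered HA and IgG libraries had deviations correlated at 0.023 to 0.44 in the Sall1 line (median 0.19) and 0.042 to 0.42 in the Lyve1 line (median 0.24), against medians of -0.08 for other pairs in each line. All 6 pairs of each line were above 0, but not all were above 0.1, the level set for treating the numbers as pairs. Over the other comparisons the correlations ran from -0.14 to 0.37, and 0 to 5 libraries of a comparison matched best with their own number. With the number as a replicate block the HA comparison called 209 genes and the IgG comparison 1. The block gave a call to Csf1r in Lyve1 HA over IgG after LPS (0.66, adjusted p = 0.0406), Bin2 in LPS HA (1.09, adjusted p = 0.0309) and Tyrobp for the difference between lines (1.13, adjusted p = 0.00738). Counts of 1 to 20 limit Bin2, and counts of 5 to 16 limit Trem2 in LPS IgG.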

Other observations

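Within a library the counts of the receptor and its adaptors can be set against each other without a library scale. The number of Trem2 counts per 100 Tyrobp counts had a median of 61.7 in Sall1 HA (53.0 to 91.5), 32.2 in Lyve1 HA (25 to 50) and 19.5 in Lyve1 LPS HA (12.3 to 20.6). The 3 HA groups did not overlap. In IgG the median was 41.9 in Sall1, 46.8 in Lyve1 and 11.2 in Lyve1 LPS, so that the LPS groups were the lowest with and without the tag. The number of Fcer1g counts per 100 Tyrobp counts ran the other way after LPS. It had a median of 19.4 in Sall1 HA, 23.3 in Lyve1 HA and 57.1 in Lyve1 LPS HA (41.1 to 70.2), and of 12.4 in Lyve1 IgG and 28.2 in Lyve1 LPS IgG. These ratios were chosen after the levels were seen, carry no test, and do not compare the abundance of the genes, whose 3′ counts may differ in efficiency.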
